A study of Homo sapiens with 4 samples.

Results

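The miR-181 family comprised the 6 human miRNA genes MIR181A1, MIR181A2, MIR181B1, MIR181B2, MIR181C and MIR181D, which were taken by gene symbol. The choice was made with earlier results of these data known. All 6 were among the 26485 gene symbols and the 1879 miRNA symbols of the table, and all 6 had reads in each of the 4 libraries. Small RNAs (sRNAs) had been sequenced from HCT116, a cell line of human colon carcinoma. Both groups carried a knockout of the gene for Drosha (Drosha k.o.). Per the study's methods the Drosha k.o. cells were 1 clone. CD95L cells had been infected with the lentivirus pLenti carrying CD95L (gene symbol FASLG), and vector cells with empty pLenti. Each group had 2 libraries. For HCT116 cells the methods name a CD95L mutant that is unable to bind its receptor and has a stop codon behind its start codon. Selection with 3 µg/mL puromycin was given as 2 days, and by the methods it began the day before plating. RNA was isolated at 50 h, counted from plating in the methods and from selection in another label. The comparison asked how the pool of sRNAs changes when the CD95L mRNA is expressed in cells without Drosha.

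Most miRNAs are cut from a long primary transcript by the nuclear nuclease Drosha, and Dicer then releases a short duplex in the cytoplasm. Of its strands, named 5p and 3p by the arm of the hairpin, mostly 1 is kept by an Argonaute protein and guides it to mRNAs through its seed, the bases near its start. The miR-181 family is best known from lymphocytes, where it sets the sensitivity of T cell receptor signalling by lowering phosphatases such as PTPN22, DUSP5 and DUSP6. It is also present in many epithelial tumours, and known targets include the cell death regulators BCL2, MCL1 and XIAP.

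The genes lie as pairs at 3 loci. On hg38, with positions from the GENCODE v44 annotation, MIR181A1 was at chromosome 1, 198859044 to 198859153, and MIR181B1 at 198858873 to 198858982, both on the minus strand in an intron of the noncoding host gene MIR181A1HG. MIR181A2 was at chromosome 9, 124692442 to 124692551, and MIR181B2 at 124693710 to 124693798, both on the plus strand in an intron of MIR181A2HG and opposite an intron of NR6A1, which encodes a nuclear receptor. MIR181C was at chromosome 19, 13874699 to 13874808, and MIR181D at 13874875 to 13875011, both on the plus strand in an intron of NANOS3, which encodes an RNA-binding protein of germ cells. The members of a pair were 61, 1158 and 66 bases apart on chromosomes 1, 9 and 19, in this order.

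The 5p strands are shown because they carry the seed that defines the family and because identical copies limit what a count can assign. Sequences are those of RefSeq (GRCh38.p14), with the seed (bases 2 to 8 from the 5′ end) in capitals.
hsa-miR-181a-5p: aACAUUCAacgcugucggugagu
hsa-miR-181b-5p: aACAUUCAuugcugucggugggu
hsa-miR-181c-5p: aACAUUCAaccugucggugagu
hsa-miR-181d-5p: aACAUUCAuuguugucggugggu

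All 4 share the seed ACAUUCA, which 5 of the 2370 mature human miRNAs of the RefSeq table hold, the other being hsa-miR-4262. The seed has 0 G, as do 11.7% of all mature miRNAs in that table, whose median is 2 G. Counted from the 5′ end, miR-181b-5p differs from miR-181a-5p by A9U, C10U and A21G, and miR-181d-5p differs from miR-181b-5p only by C12U. miR-181c-5p is miR-181a-5p without its base at position 11. The sequence of miR-181a-5p has 2 exact matches in hg38, in MIR181A1 and MIR181A2, and miR-181b-5p has 2, in MIR181B1 and MIR181B2. miR-181c-5p and miR-181d-5p have 1 each. By HTSeq's usual rules a read that maps to several places is not counted, so reads of miR-181a-5p and miR-181b-5p may be largely missing, and the levels of their 4 genes are uncertain.

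The 3p strands are shown because each has a single match and can tell the copies apart.
hsa-miR-181a-3p, from MIR181A1: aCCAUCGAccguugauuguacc
hsa-miR-181a-2-3p, from MIR181A2: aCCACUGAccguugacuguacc
hsa-miR-181b-3p, from MIR181B1: cUCACUGAacaaugaaugcaa
hsa-miR-181b-2-3p, from MIR181B2: cUCACUGAucaaugaaugca
hsa-miR-181c-3p, from MIR181C: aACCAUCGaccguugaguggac
hsa-miR-181d-3p, from MIR181D: cCACCGGGggaugaaugucac

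The 3p strands fall into 5 seeds, since only those of MIR181B1 and MIR181B2 share the seed UCACUGA. The seed of miR-181d-3p has 3 G and those of the other 3p strands have 1 each. The table gives reads per gene, so the strand a read came from was not analysed here.

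The libraries held 22897068 and 22488145 gene reads for CD95L cells, against 24915394 and 25163566 for vector cells. Levels are given as CPM, reads per 1000000 reads counted to genes. A count of 0 allows up to 3 reads, or 0.119 to 0.133 CPM by library. The 95% intervals are exact for independent reads and cover only counting error within libraries. PCR copies cannot be told from separate molecules, so the intervals may be too narrow. The titles of both vector libraries carry a mark, (# 2), which no source used here explains, and a batch shared by these libraries cannot be told apart from the group. FASLG was the only gene of 16127 tested that passed the main test, at 5.00 higher on the log2 scale in CD95L cells (limma, adjusted p = 3.55e-05). Fragments of DROSHA mRNA were at 10.1 and 13.6 CPM in CD95L cells, against 13.6 and 10.4 CPM in vector cells. The 8 epithelial and colon markers, such as the keratins KRT8 and KRT18, were all above 0 and summed to 127 and 122 CPM in CD95L cells, against 136 and 137 CPM in vector cells.

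Counted miR-181 reads were scarce in CD95L cells and more frequent in vector cells, and the vector libraries differed strongly from each other. The 6 genes summed to 2.84 and 2.85 CPM (65 and 64 reads) in the CD95L libraries, against 44.9 and 8.98 CPM (1119 and 226 reads) in the vector libraries. The CD95L libraries were nearly alike and both lay below both vector libraries. The log2 ratio of the group means was -3.24. It became -1.66 when vector replicate 1 was left out and -3.98 when vector replicate 2 was. Relative to vector replicate 2 alone, the sum was at 0.316 (95% interval 0.236 to 0.418) in CD95L replicate 1 and 0.317 (0.236 to 0.420) in CD95L replicate 2. The share of the family among all miRNA reads was 0.00967% and 0.00942% in CD95L cells, against 0.128% and 0.0296% in vector cells. Total miRNA reads differed far less, at 2.94% and 3.02% of gene reads in CD95L cells and 3.51% and 3.03% in vector cells. That total held abundant miRNAs made without Drosha, so it does not describe miRNAs made like miR-181. Among them MIR320A was at 12920 and 12695 CPM in CD95L cells, against 13087 and 11984 CPM in vector cells. In such bulk samples, fewer cells that make an RNA and less of it per cell cannot be told apart.

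**Figure D1:**
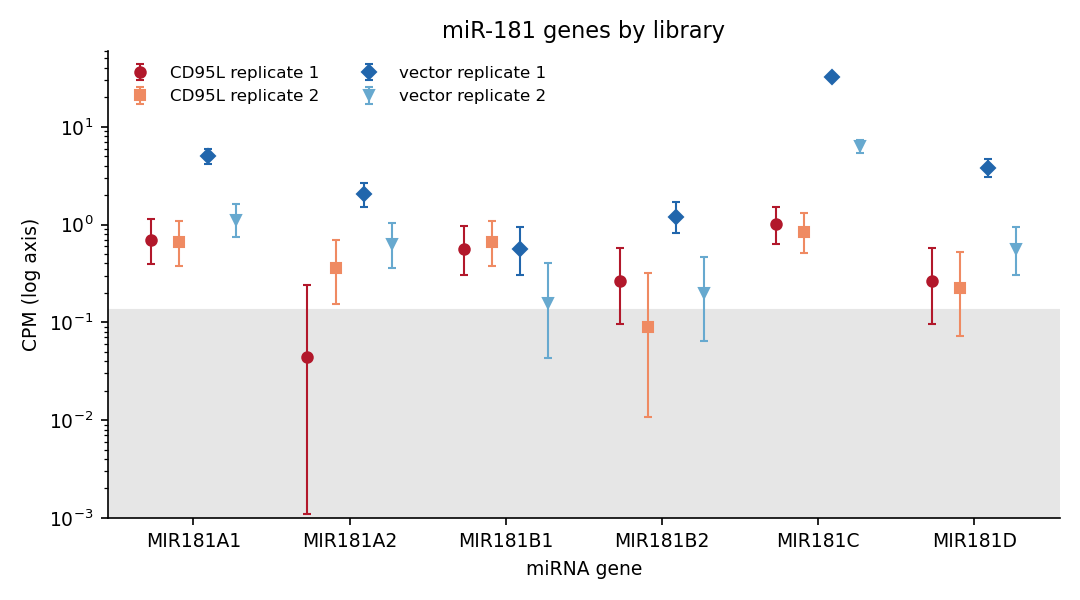
Level of each miR-181 gene in CPM (log axis) in the 4 libraries, with bars for the exact 95% counting interval. The grey band marks levels up to the most that a count of 0 allows (0.133 CPM at the lowest depth). MIR181C lies near 1 CPM in both CD95L libraries and at 32.3 and 6.32 CPM in the vector libraries, whereas MIR181B1 is not lower in CD95L cells.

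MIR181C had the most counted reads of the members in every library and carried most of this difference in counted reads. Because reads of miR-181a-5p and miR-181b-5p may be largely missing, its true rank within the family is uncertain. It was at 1.00 and 0.845 CPM (23 and 19 reads) in the CD95L libraries, against 32.3 and 6.32 CPM (805 and 159 reads) in the vector libraries. Both CD95L libraries lay below both vector libraries, and the vector libraries differed from each other more than the CD95L libraries did. The means were 0.925 ± 0.113 CPM in CD95L cells and 19.3 ± 18.4 CPM in vector cells (SD, n = 2 each), which is 20.9-fold lower in CD95L cells, or 6.83-fold without vector replicate 1. The scale of log2(CPM + 1) makes changes of scarce RNAs look smaller, and on it the difference was -3.02 ± 0.52 (SE). It did not pass the main test, limma across 16127 genes, with an unadjusted p of 9.35e-05 and a Benjamini-Hochberg adjusted p = 0.242.

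The 19 alternatives to the main test reuse the same 4 libraries, in which the groups of MIR181C did not overlap. That it was lower in CD95L cells in all 19 is therefore no support of its own. Whether MIR181C passed depended on the setting, and it was past the threshold in 12. It passed with edgeR on recovered reads (-4.34, adjusted p = 8.62e-06), which called 0.366% of 19686 genes and 0.335% as lower in CD95L cells. It passed with DESeq2 (-4.35, adjusted p = 0.0266), which called 0.179% of 24532 genes lower. With limma it passed after TMM scaling (adjusted p = 0.00551), with DESeq2 size factors (adjusted p = 0.00324) and with a variance trend (adjusted p = 0.00291), where 0.167%, 0.186% and 0.174% of genes were called lower, in this order. It also passed without vector replicate 1 (-1.93, limma, adjusted p = 0.0156), with 0.093% of genes called lower, and without vector replicate 2 (-4.11, limma, adjusted p = 2.89e-08), with 0.471%. edgeR called MIR181C whichever library was left out (adjusted p of 5.56e-10 to 0.0326), and called 0.0914% and 0.152% of genes lower without CD95L replicate 1 or 2 and 0.0864% and 0.417% without vector replicate 1 or 2. The last of the 12 was a block on the replicate number, with 0.44% of genes called lower. With limma it did not pass without CD95L replicate 1 or CD95L replicate 2. Nor did it pass with the other pseudocounts, filters or upper quartile scaling (limma, adjusted p of 0.103 to 0.887). Against vector replicate 2 alone, the lower of the vector libraries, MIR181C was at 0.159 (95% interval 0.0979 to 0.247) in CD95L replicate 1 and at 0.134 (0.0784 to 0.216) in CD95L replicate 2.

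**Figure D2:**
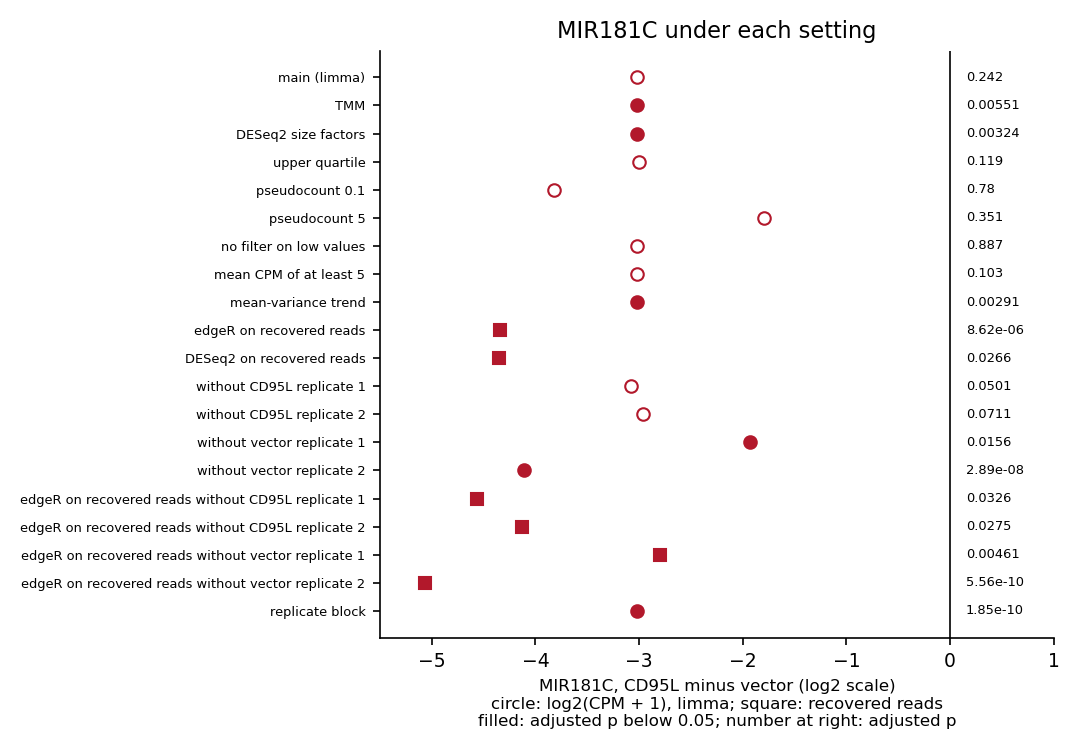
Difference of MIR181C (CD95L minus vector, log2 scale) under the main test and 19 alternatives, with the adjusted p at the right. Circles are limma on log2(CPM + pseudocount), squares are edgeR or DESeq2 on recovered reads, and filled symbols have an adjusted p below 0.05. Every value lies below 0, which is no support of its own because all settings reuse the same libraries. Of the 19 alternatives 12 are filled.

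MIR181D, 66 bases from MIR181C, was scarcer. It was at 0.262 and 0.222 CPM (6 and 5 reads) in the CD95L libraries, against 3.81 and 0.556 CPM (95 and 14 reads) in the vector libraries. The groups did not overlap, but vector replicate 2 was close to the CD95L libraries. The difference was -1.14 ± 0.42 (SE, log2 scale; limma, adjusted p = 0.849). Leaving out vector replicate 1 gave -0.33, and leaving out vector replicate 2 gave -1.95. Against vector replicate 2, MIR181D was at 0.471 (0.148 to 1.30) and 0.400 (0.113 to 1.17) in the CD95L libraries, so that counting error alone covers a ratio of 1.

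MIR181A1 behaved much like MIR181D. It was at 0.699 and 0.667 CPM (16 and 15 reads) in the CD95L libraries, against 4.98 and 1.11 CPM (124 and 28 reads) in the vector libraries. Again the groups did not overlap and vector replicate 1 stood apart. The difference was -1.08 ± 0.40 (SE, log2 scale, limma, adjusted p = 0.849). It became -0.33 without vector replicate 1 and -1.83 in the fit that left out vector replicate 2. Against vector replicate 2 its level was 0.628 (0.317 to 1.20) and 0.599 (0.298 to 1.16) in the CD95L libraries.

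The other 3 members had a mean below 1 CPM and were not tested in the main fit. MIR181A2 was at 0.0437 and 0.356 CPM (1 and 8 reads) in the CD95L libraries, against 2.05 and 0.636 CPM (51 and 16 reads) in the vector libraries. Its groups did not overlap, and its first CD95L value lay below the level that a count of 0 allows. With no filter on low values its difference was -0.91 (log2 scale; limma, adjusted p = 0.887). MIR181B2 was at 0.262 and 0.0889 CPM (6 and 2 reads) in the CD95L libraries, against 1.20 and 0.199 CPM (30 and 5 reads) in the vector libraries. Here the groups overlapped, because CD95L replicate 1 lay above vector replicate 2.

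By group means, MIR181B1 was the only member without a lower level in CD95L cells. It was at 0.568 and 0.667 CPM (13 and 15 reads) in the CD95L libraries, against 0.562 and 0.159 CPM (14 and 4 reads) in the vector libraries. Against vector replicate 2 its level was 3.57 (1.10 to 15.0) in CD95L replicate 1 and 4.20 (1.34 to 17.4) in CD95L replicate 2. Against vector replicate 1 it was 1.01 (0.437 to 2.32) and 1.19 (0.534 to 2.65), so that counting error covers a ratio of 1 there. With no filter the difference was 0.26 (log2 scale; limma) and it did not pass in any of the 7 alternatives that tested it (adjusted p of 0.881 to 0.999, with limma, edgeR or DESeq2).

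Read against all genes, 0 of the 3 tested members were called by limma, where 0.0062% of 16127 genes were called and 0.0% were called lower. At an unadjusted p below 0.05 all 3 were lower, as were 2.52% of all genes tested. MIR181A1 and MIR181D reached the mean of 1 CPM only through vector replicate 1, and MIR181C only through the vector libraries, so that these 3 were bound to differ and their count is no support of its own. With edgeR, MIR181C alone passed of the 5 members tested there, MIR181B2 not being among them. Both CD95L libraries lay below both vector libraries for 4 of the 6 members (MIR181A1, MIR181A2, MIR181C and MIR181D), for 16.8% of the 24532 genes above 0 and for 28.8% of the 972 miRNA symbols above 0. Both lay above both vector libraries for MIR181B1, by a narrow margin, for 16.8% of these genes and for 7.3% of these miRNA symbols.

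The spread between the vector libraries ran the same way in every member. Vector replicate 1 exceeded vector replicate 2 by 5.11-fold for MIR181C (95% interval 4.31 to 6.10), 4.47-fold for MIR181A1 (2.95 to 7.00), 6.85-fold for MIR181D (3.89 to 13.0) and 3.22-fold for MIR181A2 (1.81 to 6.05). For MIR181B1 and MIR181B2 the ratios were 3.53 (1.11 to 14.7) and 6.06 (2.33 to 20.0). Each of the 6 intervals excluded 1. The median ratio was 1.07 over 16126 genes, of which 1.58% reached 3, and 1.22 over 351 miRNA symbols, of which 16.8% reached 3. The CD95L libraries differed beyond counting error only for MIR181A2, at a ratio of CD95L replicate 1 to 2 of 0.123 (0.00277 to 0.916).

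**Figure D3:**
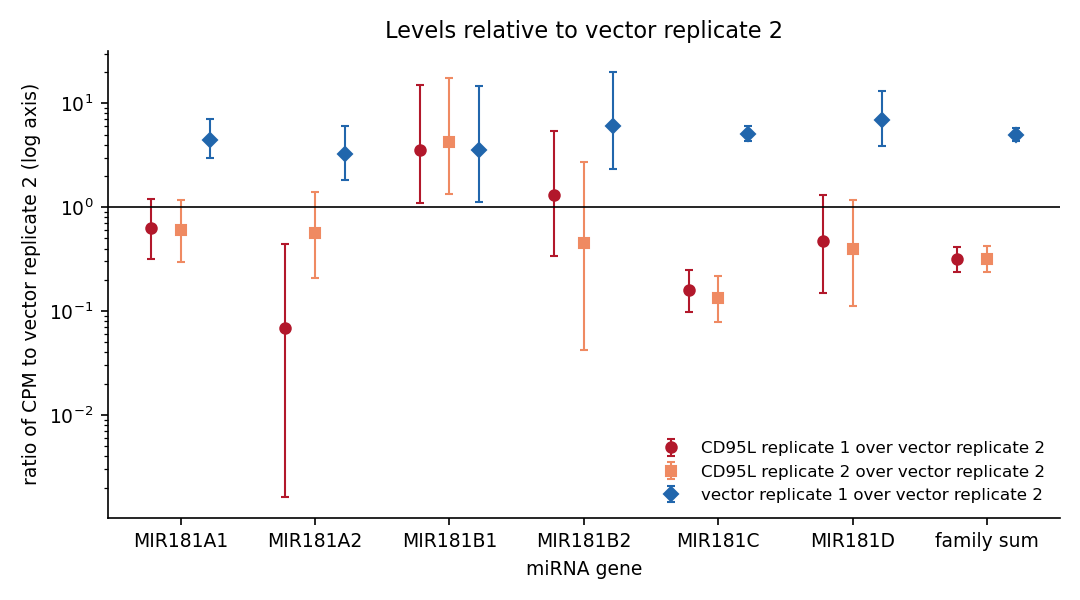
Level of each member and of the family sum relative to vector replicate 2 (log axis), with exact 95% intervals for counting error. Vector replicate 1 lies above 1 for all 6 members, whereas both CD95L libraries lie below 1 beyond counting error only for MIR181C and for the family sum (0.316 and 0.317).

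The makeup of the counted miR-181 reads also differed between the groups, while it was alike in the vector libraries despite their different levels. MIR181C gave 35.4% (95% Clopper-Pearson interval 23.9 to 48.2) and 29.7% (18.9 to 42.4) of the family's reads in the CD95L libraries, against 71.9% (69.2 to 74.6) and 70.4% (63.9 to 76.2) in the vector libraries. MIR181B1 gave 20.0% (11.1 to 31.8) and 23.4% (13.8 to 35.7) in the CD95L libraries, against 1.25% (0.686 to 2.09) and 1.77% (0.484 to 4.47) in the vector libraries. For both genes the intervals of the groups did not overlap. The shares of a library are bound to each other, so that these are not 2 separate results. MIR181B1 itself had 13 and 15 reads in the CD95L libraries, against 14 and 4 in the vector libraries. MIR181C had 23 and 19 reads, against 805 and 159. These shares are ratios within a library, so they do not depend on its depth or scaling. Among all miRNA symbols MIR181C ranked 302 and 323 in CD95L cells, against 54 and 120 in vector cells.

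**Figure D4:**
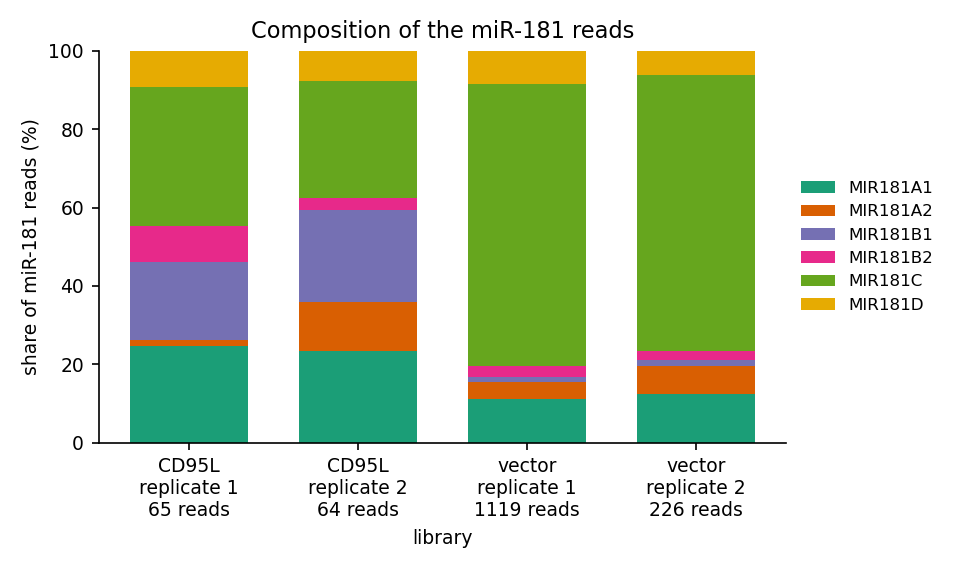
Share of each member (%) in the counted miR-181 reads of each library, with the number of reads below each bar. Reads of miR-181a-5p and miR-181b-5p may be largely missing. MIR181C makes up 35.4% and 29.7% in the CD95L libraries and 71.9% and 70.4% in the vector libraries, and MIR181B1 makes up 20.0% and 23.4% against 1.25% and 1.77%.

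By locus, the difference in counted reads was clearest on chromosome 19. On chromosomes 1 and 9 reads of the 5p strands may be largely missing. MIR181C and MIR181D together gave 1.27 and 1.07 CPM in the CD95L libraries, against 36.1 and 6.88 CPM in the vector libraries. The chromosome 9 pair gave 0.306 and 0.445 CPM in the CD95L libraries, against 3.25 and 0.835 CPM in the vector libraries. The chromosome 1 pair gave 1.27 and 1.33 CPM in the CD95L libraries, against 5.54 and 1.27 CPM in the vector libraries, so that vector replicate 2 did not exceed the CD95L libraries there. Without MIR181C the other 5 members summed to 1.83 and 2.00 CPM in CD95L cells, against 12.6 and 2.66 CPM in vector cells.

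Of 14 genes of the table within 100 kb of a member, 11 were tested and 0 were called (limma), 1 had an unadjusted p below 0.05, and their median difference was -0.14 on the log2 scale. Fragments of MIR181A1HG were at 1.79 and 2.58 CPM in CD95L cells, against 3.41 and 2.07 CPM in vector cells (limma, adjusted p = 0.954). Those of MIR181A2HG were at 1.70 and 1.42 CPM in CD95L cells, against 1.36 and 2.38 CPM in vector cells (limma, adjusted p = 0.970). NR6A1, on the opposite strand, was at 11.4 and 18.6 CPM in CD95L cells, against 17.2 and 17.9 CPM in vector cells. In all 3 the groups overlapped, and so they did for NANOS3, at 0.437 and 0.934 CPM in CD95L cells, against 0.682 and 0.119 CPM in vector cells. The miRNAs of another cluster on chromosome 19 were scarce. MIR23A was at 0 and 0.178 CPM in CD95L cells, against 0.843 and 0.199 CPM in vector cells, and its groups did not overlap. MIR24-2 was at 0.218 and 0.400 CPM in CD95L cells, against 0.401 and 0 CPM in vector cells. MIR27A was at 0.306 and 0.756 CPM in CD95L cells, against 2.37 and 0.835 CPM in vector cells. Its groups did not overlap either (limma, unadjusted p = 0.0436). Both CD95L libraries lay below both vector libraries for 28.8% of the 972 miRNA symbols above 0.

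Other miRNA groups were set beside the family. Let-7, the family first found in developmental timing in worms, and miR-30 are cut by Drosha, whereas mirtrons are released by splicing and the miR-320 family arises without Drosha. No tested gene of these groups was called by limma. edgeR called 5 of 6 tested let-7 genes and 4 of 5 tested miR-30 genes lower in CD95L cells, where it called 46 of 459 miRNA symbols and 0.335% of all genes lower. The remaining tested miR-30 gene, MIR30C1, went the other way. It was at 1.70 and 3.02 CPM in CD95L cells, against 1.08 and 1.39 CPM in vector cells. Several let-7 genes and MIR30E, like the miR-181 genes, were abundant enough to be tested only through the vector libraries, so that these counts are no support of their own. The groups are therefore compared by sums over all their listed genes. Over the 11 tested mirtrons the median difference was -0.11 on the log2 scale, and over 6 miR-320 genes it was 0.05, where it was -0.01 over all genes tested.

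The let-7 sum was 5.24 and 5.60 CPM in CD95L cells, against 147 and 25.4 CPM in vector cells. Vector replicate 1 thus exceeded vector replicate 2 by 5.81-fold for let-7 and by 4.83-fold for miR-30, close to the 5.00-fold of the miR-181 sum, and by 1.18-fold for the mirtrons and 1.09-fold for the miR-320 family. MIR30A, the most abundant miR-30 gene, was at 5.37 and 4.67 CPM in CD95L cells, against 141 and 27.2 CPM in vector cells. MIR877, the most abundant mirtron, was at 4634 and 4820 CPM in CD95L cells, against 5373 and 4569 CPM in vector cells.

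**Figure D5:**
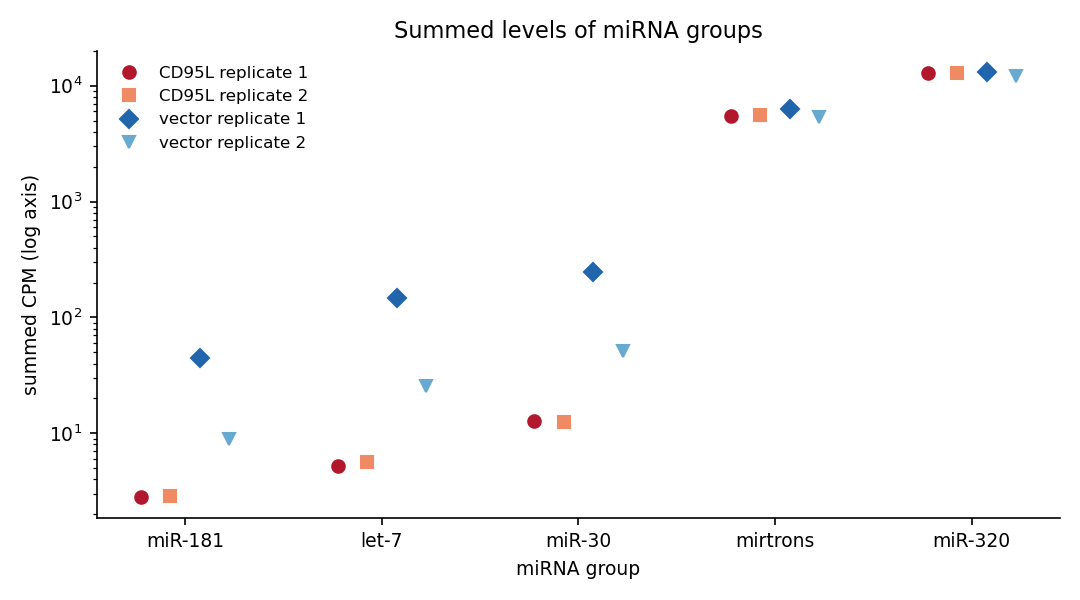
Summed CPM (log axis) of 5 miRNA groups in the 4 libraries. For miR-181, let-7 and miR-30 both CD95L libraries lie below both vector libraries, and vector replicate 1 lies highest, at 44.9 CPM for miR-181. For the mirtrons and for the miR-320 family the 4 libraries lie close together.

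Of 16 miRNA genes known from other cell types, 10 were at 0 in all 4 libraries, among them the liver miRNA MIR122. Reads that map to several places may be missing here too. A value of 0 for numbered gene copies, such as MIR124-1 and MIR124-2, may therefore not mean absence. The sum was 2.40 and 1.33 CPM in CD95L cells, against 38.0 and 7.63 CPM in vector cells. MIR126, known from endothelial cells, was at 1.48 and 0.711 CPM in CD95L cells, against 35.0 and 6.48 CPM in vector cells, and made up most of the sum in the vector libraries. The leukocyte miRNA MIR142 was at 0.175 and 0.178 CPM in CD95L cells, against 1.61 and 0.556 CPM in vector cells. Only for MIR126 and MIR142 did both CD95L libraries lie below both vector libraries. MIR150, also of leukocytes, overlapped, at 0.655 and 0.445 CPM in CD95L cells, against 1.12 and 0.477 CPM in vector cells. The 3 endothelial genes PECAM1, VWF and CDH5 summed to 42.5 and 64.3 CPM in CD95L cells, against 57.7 and 51.1 CPM in vector cells. The 6 leukocyte genes summed to 11.6 and 18.2 CPM in CD95L cells, against 11.6 and 9.50 CPM in vector cells. The 5 fibroblast genes summed to 34.2 and 37.6 CPM in CD95L cells, against 28.7 and 21.1 CPM in vector cells. The part of RNA from other cells in the miR-181 result was not tested.

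With the other members left out, the 5 genes whose profile over the 4 libraries was most like that of MIR181C were other miRNAs. Likeness was the root mean square difference of log2(CPM + 1) after centring each gene. It was 0.06 for MIR204, 0.12 for MIRLET7G, 0.13 for MIRLET7C and 0.15 for both MIR30D and MIR126, where the median over all genes tested was 1.70. For MIR181A1 the nearest outside the family were SNORD114-25 (0.07), MIR186 (0.11), and MIRLET7F2, SNORD116-23 and MIR409 (0.13 each). For MIR181D they were MIR409 (0.10), MIR889 (0.11), SNORD114-25 and MIRLET7F2 (0.12 each) and MIR29C (0.13). For the family sum they were MIRLET7I and MIR381 (0.06 each), MIR23B (0.07), MIR340 (0.10) and SNORD115-32 (0.11). Within the family MIR181A1 and MIR181D lay 0.06 apart, closer than either lay to any gene outside it. MIR181C lay 1.00 from MIR181A1 and 0.96 from MIR181D. This scale makes changes of scarce RNAs look smaller, so these distances also depend on abundance. By group means, MIR181A1 was 4.46-fold and MIR181D 9.02-fold lower in CD95L cells.

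The genes that make and use miRNAs, and the known mRNA targets of miR-181, showed no such pattern in the fragments counted here. Of 14 miRNA processing and Argonaute genes, 7 were at negative and 7 at positive differences, with 0 called by limma, and their median was -0.0011 on the log2 scale. AGO2, the Argonaute with cutting activity, was at 40.2 and 32.6 CPM in CD95L cells, against 42.7 and 36.6 CPM in vector cells. TNRC6B, which binds Argonaute proteins, was at 51.5 and 54.8 CPM in CD95L cells, against 59.5 and 52.1 CPM in vector cells. Of 18 known targets 16 were tested, with 8 at negative and 8 at positive differences, a median of 0.05 and 0 called by limma. MCL1, which protects cells from apoptosis, was at 91.3 and 81.0 CPM in CD95L cells, against 91.6 and 82.8 CPM in vector cells. The phosphatase gene DUSP6 was at 34.4 and 40.1 CPM in CD95L cells, against 40.3 and 45.1 CPM in vector cells. These are short fragments of mRNAs in sRNA libraries and do not measure the mRNAs' levels.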

How the data were processed

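The authors trimmed reads with TrimGalore, aligned them to hg38 with TopHat (the submitters' notes also name Bowtie2), counted genes with HTSeq and tested them with edgeR. Their versions are not given in the sources used here. Deposited values were CPM, 1000000 per library, and 100% were whole reads within 0.01 read. The authors' own comparison, deposited as log2 values (average CPM and fold change), p-values and adjusted p-values, was not used.

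The main test was limma 3.58.1 (R 4.3.3) on log2(CPM + 1) for the 16127 genes averaging 1 CPM or more, two-sided, Benjamini-Hochberg adjusted, threshold 0.05. edgeR 4.0.16 (quasi-likelihood) and DESeq2 1.42.0 on recovered reads, other scalings, pseudocounts and filters, and leaving out each library were alternatives. Coordinates, which the deposited table lacks, came from GENCODE v44. Named were the 6 members, FASLG and DROSHA, up to 4 of the most abundant genes per list, host, overlapping and neighbouring miRNA genes, and the 5 most alike genes per tested member. The members and lists were chosen with earlier results of these data known. The methods give the experiment as done in duplicate without naming the step, so the spread behind each p-value is that of these libraries and may be partly technical.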

Additional observations from a re-analysis of the deposited data

How the results depend on the processing

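With 0 members called by limma in the main test, 1 member (MIR181C) was called after TMM scaling, with DESeq2 size factors, with a mean-variance trend, with edgeR and with DESeq2. Over all genes the count was 1 in the main test, 28 after TMM scaling, 31 with DESeq2 size factors, 29 with the trend, 72 with edgeR, 50 with DESeq2, and 0 with a pseudocount of 0.1 or no filter. Leaving out 1 library gave 0 to 3 members and 9 to 79 genes with limma. With edgeR it gave 1 to 3 members and 34, 37, 20 and 90 genes without CD95L replicate 1 or 2 or vector replicate 1 or 2, the lone library of a group being assumed to vary like the others. It gave a family ratio of -3.98 to -1.66 on the log2 scale. Calls of MIR181A1 and MIR181D came only without vector replicate 2. Same-numbered libraries of the groups did not deviate together (Pearson r = -0.00198 across 16127 genes, which are not independent), and with a replicate block 80 genes and 1 member passed. Of 83 member values under the alternatives 72 were lower in CD95L cells, 16 passed and 0 reversed their sign. All alternatives reuse the same 4 libraries, so that a constant sign is no support of its own. Members with fewer than 20 reads in a library have wide intervals, and MIR181B1 and MIR181B2 passed in none of the alternatives that tested them.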
